A study of Homo sapiens with 6 samples.

Results

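The integrins and laminins were 38 gene symbols out of the 56638 symbols counted by RNA sequencing of 6 libraries from a cell line of human colorectal cancer. They were chosen by name, as the 18 integrin α subunits (ITGA followed by a number, V, L, M, X, D, E or 2B), the 8 integrin β subunits (ITGB1 to ITGB8) and the 12 laminin chains (LAMA, LAMB and LAMC). The rule reads names only and no measured value, but it was set with earlier results of these data known. A gene was tested where its counts reached 5 over the libraries of either group, which left 34 of the 38 among 23074 genes tested. Of these, 27 had a mean of at least 1 CPM, counts per 1000000 counts on genes, the unit of the normalized read counts used here (library sizes scaled by the TMM method of edgeR).

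Control siRNA was a nonspecific siRNA used as the negative control, and GLCC1 siRNA was directed against GLCC1, the long noncoding RNA that the sample titles call lncRNA-AF339830. There were 3 libraries in each group, and no time after transfection is given in the sources used here. The labels name SW480 cells, a line made from a colorectal adenocarcinoma, at passage 16 to 19, whereas the methods of the study name DLD-1, another colorectal adenocarcinoma line. Libraries were grouped by their titles, but the names of the sequencing libraries give every group the opposite siRNA, and every direction below would turn if those names were right. The genotype label reads siRNA1 in all libraries, and the sources do not say which GLCC1 siRNA was sequenced. Nothing says that the replicates were separate cultures, so p-values measure the spread between these libraries, which may be technical.

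The libraries held 11948790 to 19042516 counts on genes. GLCC1 itself is not among the symbols used here. FARP1, the gene that contains the GLCC1 locus on the same strand, fell from 110.5 ± 2.13 CPM to 64.8 ± 1.32 CPM (mean ± SD, n = 3, edgeR adjusted p = 9.2e-06). GLCC1 siRNA replicate 2 stood apart. Compared gene by gene with the other GLCC1 siRNA libraries it gave a chi-square of 18.1 and 19.0 per degree of freedom, whereas this was 1.93 to 4.16 for the other pairs within a group. It was also the smallest library. Of 8 markers of colorectal epithelium, 5 fell (62.5%), where 16.7% of all genes tested and 24.8% of those at a mean of 1 CPM or more fell. The summed level of all 8 markers was 5513 to 6032 CPM in the control libraries and 2193 to 2592 CPM in the GLCC1 siRNA libraries. Most of the sum came from the keratins KRT8, KRT19 and KRT18, which fell from means of 3584, 881 and 423 CPM to 1177, 347 and 120 CPM. EPCAM and CDH1 fell less (log2 fold change -0.30 and -0.53). CDX2, VIL1 and KRT20 were not called (-0.24, 0.21 and -0.92). The part of these markers in the results below was not tested. The leukocyte marker PTPRC, the fibroblast markers DCN and LUM and the endothelial markers PECAM1 and CDH5 had no count in any library, whereas other markers were counted. The 4 fibroblast markers summed to 16.1 to 19.9 CPM in control libraries and 10.7 to 13.2 CPM in GLCC1 siRNA libraries, all of it from COL1A1 and PDGFRB. The 6 leukocyte markers summed to 3.09 to 4.16 CPM and 3.26 to 5.47 CPM, mostly from CD14, and the 3 endothelial markers to 0.542 to 1.03 CPM and 0.318 to 1.40 CPM, all from VWF.

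Integrins are receptors in the plasma membrane, each made of an α and a β subunit, which hold cells to the extracellular matrix and link it to the cytoskeleton. The α subunit largely decides the ligand, and ITGB1 is the β subunit that most α subunits share. Laminins are matrix proteins of the basement membrane, each a trimer of an α, a β and a γ chain, and are named after their chains, as in laminin-511, which is made of LAMA5, LAMB1 and LAMC1. In the intestine, laminins of the basement membrane and their integrin receptors anchor the epithelium, and ITGA6 with ITGB4 forms the core of hemidesmosomes, which join the keratin filaments to laminin-332.

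The target of siRNA 1 and the 3′ UTR words that match its seed are shown first, because siRNAs can lower other messenger RNAs that pair with bases 2 to 8 of their guide strand. This siRNA was chosen with earlier results of these data known. The study lists another GLCC1 siRNA, whose seed was not searched, and the sources do not say which of them was sequenced. The target lies at chr13:99049528-99049546 on the plus strand of GRCh37 (hg19), with the 8 bases of the word in capitals. The sites of members with a mean of at least 1 CPM follow, each of 26 bases of the canonical transcript on GRCh37 and on the plus strand, with the word in capitals.
siRNA 1 target: ggaagagcaacACCTTGAA
ITGA6, chr2:173368911-173368936: aaagtatattgataACCTTGAAaaaa
ITGA2, chr5:52388222-52388247: tgtgcatatggacaACCTTGActacc
ITGB8, chr7:20451468-20451493: gtgctcagcttgagACCTTGAtacac
LAMC3, chr9:133968806-133968831: atggtgtgggtggggCCTTGAAgggt

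The words searched were ACCTTGA and CCTTGAA, which overlap in ACCTTGAA, on the transcript strand only. Of 27 members, 4 held a 7-base word (14.8%), against 2404 of the 11337 genes that reached a mean of 1 CPM and had a 3′ UTR of at least 50 bases (21.2%). ITGA6 was the only member of the 27 with the 8-base word (3.7%), which 497 of all those genes held (4.38%). Both shares of the members were below those of all genes. The values of the 4 members that hold a word are given below with those of their groups, and the part of the words in them was not tested.

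After GLCC1 siRNA, 13 of the 34 members tested were called (edgeR quasi-likelihood test, Benjamini-Hochberg adjusted p under 0.05 over all genes tested), which is 38.2%, where 31.6% of all genes tested were called. Those that fell were 10 (29.4%), against 16.7% of all genes, and those that rose were 3 (8.82%), against 14.9% of all genes. At 2-fold or more, 4 fell (ITGA2, ITGA6, LAMA3 and LAMB3) and 2 rose (LAMA1 and LAMA2), where 7.78% of all genes passed both limits in either direction. The median log2 fold change of the members was -0.01, beside 0.03 for all genes tested. At a mean of 1 CPM or more, 13 of 27 members (48.1%) and 45.1% of all genes were called. At that level 37% of members and 24.8% of all genes fell, and 11.1% and 20.3% rose. The share of members called in either direction was therefore near the background. Whether the shares by direction differ from it was not tested, and what follows is a description of which members moved. In these bulk libraries, fewer cells of a type and less RNA per cell cannot be told apart. Without GLCC1 siRNA replicate 2, 4 of 33 members tested rose and 11 fell, as ITGB4 lost its call whereas ITGA2B, LAMB2 and LAMC1 gained a call. More genes were called over the whole series in that setting too, 9920 of 22470 tested in place of 7293 of 23074.

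**Figure D1:**
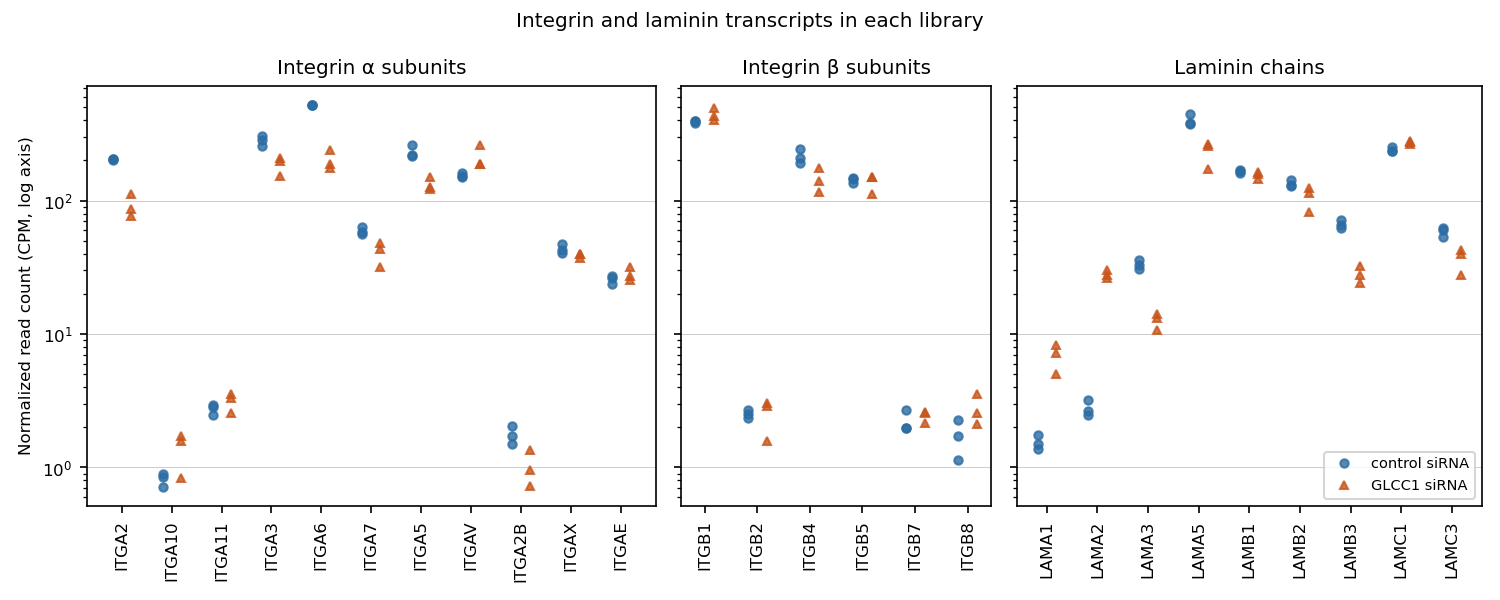
Normalized read counts (CPM, log axis) of 26 integrin and laminin genes at a mean of 1 CPM or more, with a circle for each control siRNA library and a triangle for each GLCC1 siRNA library. ITGA6 lay at 517 to 520 CPM in control libraries and at 175 to 240 CPM in GLCC1 siRNA libraries, whereas LAMA2 and LAMA1 lay higher in each GLCC1 siRNA library than in each control library.

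The 3 laminin-binding α subunits, ITGA3, ITGA6 and ITGA7, all fell. ITGA6 (chr2:173292082-173371187, plus strand), which pairs with ITGB1 or ITGB4, had 519, 517 and 520 CPM in control replicates 1 to 3 and 175, 240 and 189 CPM in GLCC1 siRNA replicates 1 to 3. The control libraries were almost alike, and each GLCC1 siRNA library held less than the lowest of them. ITGA6 fell by 1.37 on the log2 scale (SE 0.11, adjusted p = 7.2e-07 from edgeR), so that the control level was 2.58 times the GLCC1 siRNA level. ITGA3, the partner of ITGB1 in a receptor for laminin-332 and laminin-511, had 257, 303 and 282 CPM in control libraries and 198, 154 and 208 CPM in GLCC1 siRNA libraries. Its groups did not overlap, and it fell by 0.59 (SE 0.11, adjusted p = 0.0011 from edgeR). ITGA7, best known as the laminin receptor subunit of muscle, had 56.4, 63.1 and 58.2 CPM against 47.9, 31.6 and 43.6 CPM and fell by 0.52 (SE 0.13, adjusted p = 0.0072 from edgeR). GLCC1 siRNA replicate 2 was the lowest library for both ITGA3 and ITGA7, and the highest GLCC1 siRNA library for ITGA6.

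Among the collagen-binding α subunits, ITGA2 (chr5:52285170-52390609, plus strand), the α subunit of the main collagen receptor of epithelia, had 206, 206 and 200 CPM in control libraries. In GLCC1 siRNA libraries it had 76.4, 112 and 86.3 CPM. All of the latter were below all of the former, and ITGA2 fell by 1.16 (SE 0.12, adjusted p = 8.2e-06 from edgeR). ITGA10, a subunit known from cartilage, had 0.891, 0.716 and 0.843 CPM against 1.72, 1.59 and 0.839 CPM, groups that overlapped (log2 fold change 0.75, SE 0.34, adjusted p = 0.11 from edgeR). ITGA11, known from fibroblasts, had 2.47, 2.92 and 2.83 CPM against 3.34, 2.55 and 3.52 CPM, and its groups overlapped too (0.21, SE 0.20, adjusted p = 0.46 from edgeR). ITGA1, which takes the place of ITGA2 as collagen receptor in many other cells, had 2 counts over the 3 control libraries and 0 over the GLCC1 siRNA libraries and was not tested. Its level was under the limit of 3 counts that a count of 0 allows, and no fold is given.

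The α subunits that bind the RGD motif of fibronectin and vitronectin went in opposite directions. ITGA5 (chr12:54789045-54813050, minus strand), which forms the classical fibronectin receptor with ITGB1, had 215, 259 and 221 CPM in control libraries and 127, 122 and 151 CPM in GLCC1 siRNA libraries. Its groups did not overlap, and it fell by 0.80 (SE 0.10, adjusted p = 5.6e-05 from edgeR). ITGAV (chr2:187454737-187545628, plus strand), which pairs with ITGB1, ITGB3, ITGB5, ITGB6 or ITGB8 and was the only integrin subunit that rose, had 162, 149 and 153 CPM in control libraries. It had 187, 259 and 188 CPM in GLCC1 siRNA libraries, where replicate 2 stood above the others. The rise was 0.45 (SE 0.12, adjusted p = 0.0092 from edgeR), and without control replicate 2 it was 0.42 with an adjusted p of 0.055, so that the call was lost. Without GLCC1 siRNA replicate 2 it was 0.28 with an adjusted p of 1.7e-05, a smaller change that was still called. The ratio of ITGAV to ITGA5, per length of the canonical transcript, was 0.406 ± 0.0544 in control libraries and 0.974 ± 0.277 in GLCC1 siRNA libraries (mean ± SD, n = 3), and per length of all annotated exons 0.257 ± 0.0344 and 0.616 ± 0.175. ITGA2B, the platelet fibrinogen receptor subunit, had 1.71, 2.04 and 1.51 CPM against 1.36, 0.954 and 0.727 CPM (-0.78, SE 0.30, adjusted p = 0.062 from edgeR), with groups that did not overlap and a difference that was not called. Without GLCC1 siRNA replicate 2 the value was -0.74 with an adjusted p of 0.045. ITGA8 had no count in any library.

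Most α subunits known from leukocytes were near the limit of detection, with ITGAX and ITGAE as the exceptions. ITGAX, the CD11c antigen of dendritic cells, had 42.4, 47.2 and 40.6 CPM against 40.0, 36.8 and 40.1 CPM (-0.15, SE 0.10, adjusted p = 0.25 from edgeR). Its β partner in leukocytes, ITGB2, had 2.54, 2.70 and 2.35 CPM against 2.87, 1.59 and 3.02 CPM (0.02, SE 0.24, adjusted p = 0.97 from edgeR). Neither of the genes was called, and the control mean of ITGAX was far above that of ITGB2 both in CPM and per kb of the canonical transcript (9.31 ± 0.736 CPM per kb and 0.901 ± 0.0627 CPM per kb, n = 3). ITGAE, the CD103 antigen of intraepithelial lymphocytes, had 27.2, 23.9 and 26.4 CPM against 27.1, 31.9 and 25.4 CPM, groups that overlapped (0.12, SE 0.11, adjusted p = 0.46 from edgeR). ITGB7, its partner, had 1.99, 1.98 and 2.71 CPM against 2.14, 2.62 and 2.57 CPM and was not called either (0.12, SE 0.22, adjusted p = 0.71 from edgeR). ITGB2 and ITGB7 overlap other genes on the opposite strand, and nothing in the sources says that strand was used for counting. The same holds for called members, among them LAMA1, LAMA2, LAMA5 (244 exonic bases shared with ADRM1) and ITGA7 (119 shared with BLOC1S1). ITGB2-AS1, the antisense gene that shares 303 exonic bases with ITGB2, had 28, 30 and 19 counts against 77, 18 and 66 counts and rose (log2 fold change 1.01, SE 0.33, adjusted p = 0.032 from edgeR). Its level in GLCC1 siRNA replicate 2, 1.43 CPM, lay within the range of the control libraries, 1.14 to 1.92 CPM.

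The remaining members with few counts were described by counts only. ITGA4 and ITGA8 had no count in any library, and LAMB4 had 1 count over the control libraries and 0 over the GLCC1 siRNA libraries. ITGA9, ITGAL, ITGAM, ITGAD, ITGB3, ITGB6 and LAMA4 were tested with a mean under 1 CPM, and none of the 7 was called. LAMA4, the α chain of vascular laminins, was the lowest of these in control libraries, with 1 count over the 3 control libraries and 7 over the GLCC1 siRNA libraries. A difference in these genes would not have been detectable at this depth unless large, since 3 counts correspond to 0.158 to 0.251 CPM.

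Of the β subunits, ITGB4 was the only member called. ITGB1 (chr10:33176201-33294720, minus strand) had 397, 383 and 393 CPM in control libraries and 405, 492 and 434 CPM in GLCC1 siRNA libraries. The groups of ITGB1 did not overlap, but the difference of 0.18 (SE 0.08, adjusted p = 0.12 from edgeR) was not called. The pseudogene ITGB1P1, whose near-identical sequence may take reads from ITGB1, had 98.3 to 109 CPM in control libraries and 107 to 131 CPM in GLCC1 siRNA libraries (0.21, SE 0.09, adjusted p = 0.11 from edgeR). How many reads were exchanged between these genes was not tested, so the level of ITGB1 is uncertain. ITGB4 (chr17:73717408-73753899, plus strand), which pairs with ITGA6 alone, had 193, 245 and 208 CPM against 141, 115 and 176 CPM. The lowest control library stood above the highest GLCC1 siRNA library, and ITGB4 fell by 0.58 (SE 0.13, adjusted p = 0.0048 from edgeR). Without GLCC1 siRNA replicate 2 the fall was 0.44 with an adjusted p of 0.10, and the call was lost. ITGB5, a partner of ITGAV in vitronectin receptors, had 135, 147 and 144 CPM against 150, 113 and 151 CPM, and its groups overlapped (-0.04, SE 0.11, adjusted p = 0.83 from edgeR). ITGB8, another partner of ITGAV, known for activation of latent TGFβ, had 1.71, 2.26 and 1.14 CPM against 2.55, 3.58 and 2.13 CPM (0.65, SE 0.28, adjusted p = 0.096 from edgeR). Of the members that hold a word for the seed of siRNA 1, ITGA6, ITGA2 and LAMC3 fell. ITGB8 was not called, and its value of 0.65 lay in the opposite direction. Among all genes tested at a mean of 1 CPM or more, 24.8% fell, and how many of all genes with a word fell was not counted. The part of the words in these values was not tested.

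Read counts of the α subunits summed to 1525 ± 44.8 CPM in control libraries and to 940 ± 53.9 CPM in GLCC1 siRNA libraries (mean ± SD, n = 3), whereas those of the β subunits summed to 756 ± 25.6 CPM and 735 ± 33.0 CPM. The spread within groups was far smaller than the difference for the α subunits and larger than the difference for the β subunits. Of 24 known αβ combinations, 13 had both subunits at a mean of at least 1 CPM. ITGA6 with ITGB4 was the only combination of these in which both subunits were called as fallen. No other could have been, since ITGB4 was the only β subunit called and pairs with ITGA6 alone. In the combinations of ITGB1 with ITGA2, ITGA3, ITGA5, ITGA6 and ITGA7, the α subunit fell and ITGB1 was not called. The ratio of ITGA6 to ITGB1 per kb of the canonical transcript was 0.851 ± 0.0134 in control libraries and 0.290 ± 0.0200 in GLCC1 siRNA libraries, and per kb of all annotated exons it was 2.89 ± 0.0455 and 0.984 ± 0.0678. The ratio was lower after GLCC1 siRNA with either length, but which of the genes was more abundant in control libraries depends on the length. The ratio of ITGA6 to ITGB4 was 2.47 ± 0.301 and 1.49 ± 0.548 per kb of the canonical transcript. RNA levels do not tell how much of each receptor was assembled.

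**Figure D2:**
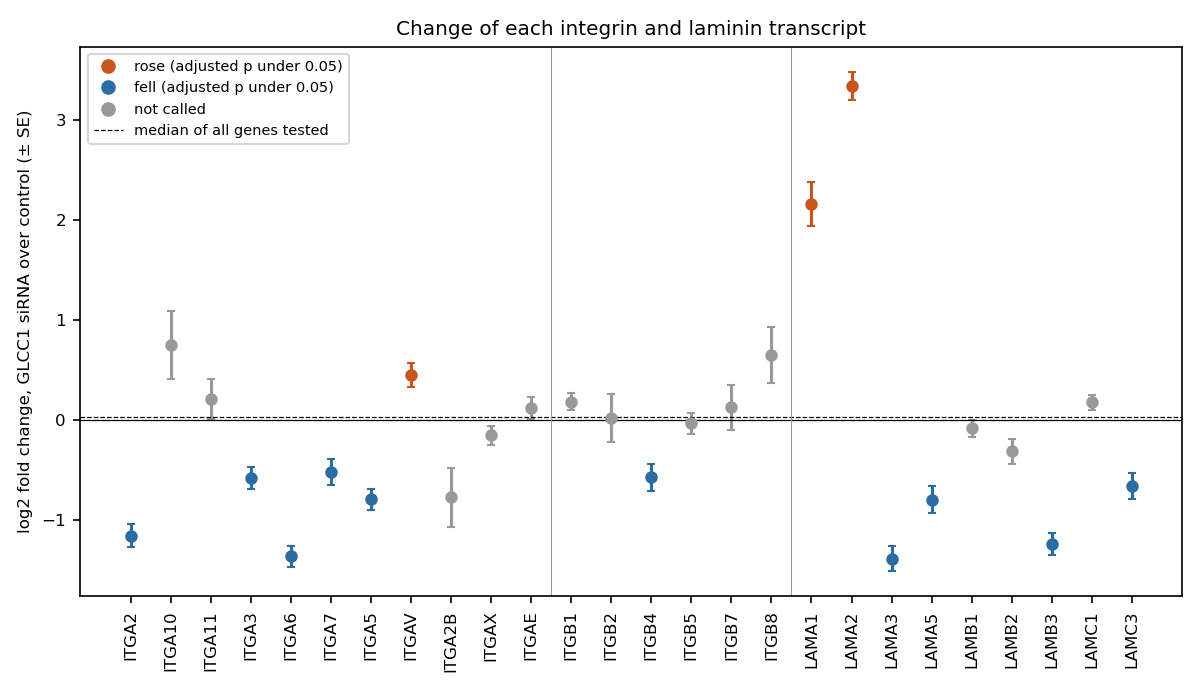
Log2 fold change (GLCC1 siRNA over control siRNA, point) with its standard error (bar) for 26 members with a mean of at least 1 CPM, as integrin α subunits, integrin β subunits and laminin chains from left to right, with the median of all genes tested as a dashed line at 0.03. Colored points passed an adjusted p of 0.05 in edgeR, and LAMA2, at 3.34, and LAMA3, at -1.39, mark the highest and the lowest points.

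The laminin α chains differed most among themselves. LAMA2 (chr6:129204283-129837711, plus strand), the α chain of laminin-211 in the basement membrane of muscle and nerve, had 3.22, 2.65 and 2.47 CPM in control libraries and 27.8, 30.1 and 26.5 CPM in GLCC1 siRNA libraries, with 136 counts in all against 1386. Every GLCC1 siRNA library was far above every control library. LAMA2 rose by 3.34 on the log2 scale (SE 0.14, adjusted p = 1.0e-08 from edgeR), which is 10.1-fold, the largest change among the members called, and the rise stayed between 3.27 and 3.45 with any library left out. LAMA1 (chr18:6941741-7117796, minus strand), the α chain of the laminin-111 of early embryos, had 1.37, 1.49 and 1.75 CPM against 7.25, 5.01 and 8.22 CPM, with 76 counts against 349. Its groups were far apart as well, and it rose by 2.16 (SE 0.22, adjusted p = 8.4e-06 from edgeR), which is 4.48-fold. LAMA1 and LAMA2 share exonic bases with long noncoding RNA genes on the opposite strand (1641 and 113 for LAMA1, 642 and 148 for LAMA2). The part of reads from those genes in the counts was not tested.

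LAMA3 and LAMA5, the α chains of epithelial laminins, both fell. LAMA3 (chr18:21269417-21536186, plus strand), the α chain of laminin-332, had 30.7, 35.8 and 33.1 CPM in control libraries and 10.7, 13.2 and 14.2 CPM in GLCC1 siRNA libraries. There was no overlap, and LAMA3 fell by 1.39 (SE 0.12, adjusted p = 2.3e-06 from edgeR). LAMA5 (chr20:60883011-60942368, minus strand), the α chain of laminin-511 and laminin-521 of most adult basement membranes, had 385, 448 and 377 CPM against 254, 173 and 266 CPM. Its groups did not overlap either, and it fell by 0.80 (SE 0.14, adjusted p = 5.0e-04 from edgeR). Of the RNA of laminin α chains, per length of the canonical transcript, LAMA5 made up 90.8 ± 0.456% in control libraries and 80.3 ± 4.12% in GLCC1 siRNA libraries, and LAMA2 0.743 ± 0.138% and 12.0 ± 3.10% (mean ± SD, n = 3). LAMA5 thus remained the most abundant α chain in both groups, in CPM and per kb. With the union of all annotated exons as length, LAMA2 made up 5.95 ± 1.67% after GLCC1 siRNA and LAMA5 86.8 ± 2.88%, so the size of this shift depends on the length used.

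LAMB3 was the only laminin β chain called. LAMB3 (chr1:209788215-209825770, minus strand), which occurs in laminin-332, had 62.5, 71.4 and 65.9 CPM against 27.5, 24.2 and 32.4 CPM. Its groups did not overlap, and it fell by 1.24 (SE 0.11, adjusted p = 2.9e-06 from edgeR). LAMB1, the β chain of laminin-111 and laminin-511, had 160, 166 and 169 CPM against 158, 145 and 163 CPM, with groups that overlapped (-0.09, SE 0.08, adjusted p = 0.45 from edgeR). LAMB2, the β chain of laminin-221 and laminin-521, had 130, 142 and 128 CPM against 115, 82.1 and 125 CPM (-0.32, SE 0.13, adjusted p = 0.076 from edgeR). Its groups did not overlap, by a small margin, and without GLCC1 siRNA replicate 2 the value was -0.16 with an adjusted p of 0.022. Whether LAMB1 or LAMB2 is the most abundant β chain depends on the length used, whereas the share of LAMB3 was lower after GLCC1 siRNA with either length (23.9 ± 0.704% and 13.1 ± 0.645% per length of the canonical transcript, 33.55 ± 0.7456% and 20.15 ± 0.9925% per length of all exons, n = 3).

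Of the laminin γ chains, LAMC3 fell. LAMC3 (chr9:133884561-133969860, plus strand), which holds a 7-base word for the seed of siRNA 1, had 53.1, 62.0 and 59.7 CPM against 39.7, 27.8 and 42.4 CPM. All control libraries were above all GLCC1 siRNA libraries, and LAMC3 fell by 0.66 (SE 0.13, adjusted p = 0.0019 from edgeR). LAMC1, the γ chain of most laminins, had 237, 251 and 236 CPM against 275, 264 and 279 CPM (0.18, SE 0.08, adjusted p = 0.095 from edgeR). Its groups did not overlap, and without GLCC1 siRNA replicate 2 the value was 0.20 with an adjusted p of 0.0010.

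**Figure D3:**
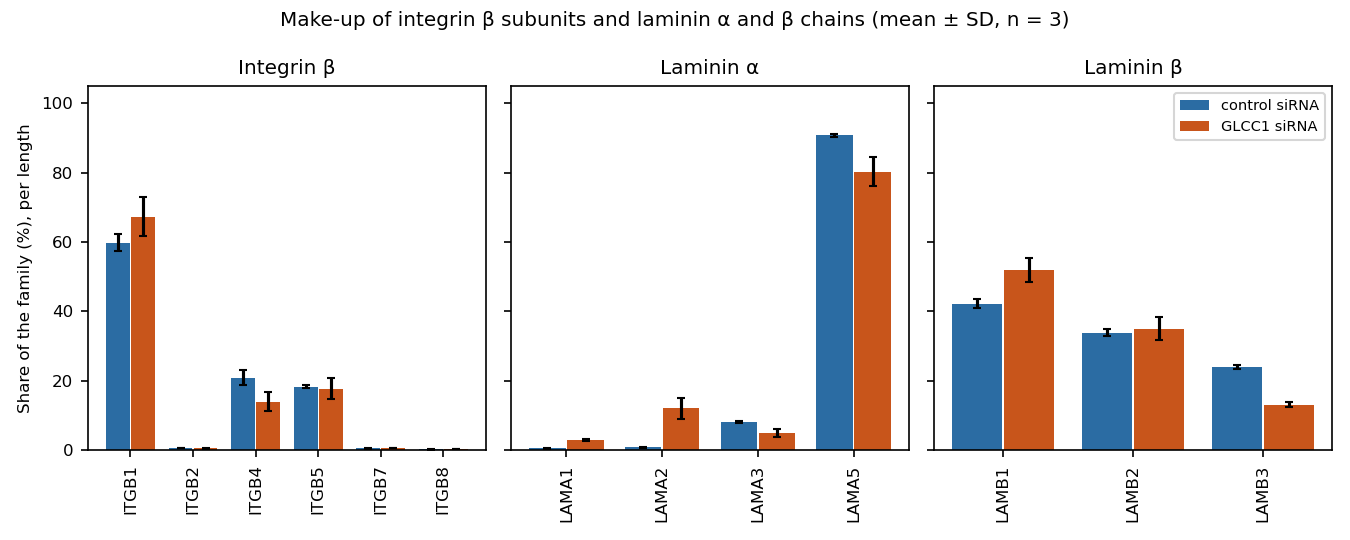
Share of each chain in its family in percent, from CPM per kb of the canonical transcript (bars, mean; error bars, SD over 3 libraries), for integrin β subunits and laminin α and β chains with a mean of at least 1 CPM. LAMA5 made up 90.8% of laminin α chains in control libraries and 80.3% in GLCC1 siRNA libraries, where LAMA2 reached 12.0%, and the share of LAMB3 was 23.9% and 13.1%.

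All laminin chains together summed to 1137 ± 62.9 CPM in control libraries and 912 ± 104 CPM in GLCC1 siRNA libraries (mean ± SD, n = 3). With either length, LAMA1 was the least abundant chain of laminin-111 and LAMA2 that of laminin-211 and laminin-221 in both groups, so the chain that rose was the scarcest of its trimer. LAMA2 reached 2.90 ± 0.185 CPM per kb of the canonical transcript after GLCC1 siRNA, from 0.287 ± 0.0407, while LAMC1, its γ partner, had 30.4 ± 1.09 and 34.4 ± 0.996.

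Promoters were searched for known words because the study concerns c-Myc, which binds the E-box CACGTG, and because the AP-1 site TGANTCA is known from genes of matrix adhesion. Both words are the same on both strands, and they do not overlap each other. RefSeq sequences (GRCh38.p14, from 250 bases before to 50 after a start) were found for 26 of the 38 members. None was found for ITGA3, ITGA7, ITGB4 and LAMC3, which fell, or for LAMA1, which rose. CACGTG stood in 1 of the 26 genes (3.85%), against 8.77% of all genes, and TGANTCA in 3 (11.5%), against 9.37% of all genes. The member with CACGTG was ITGA6, and those with TGANTCA were ITGA5, LAMA3 and LAMB3, all of which fell. Among all genes tested at a mean of 1 CPM or more, 24.8% fell. How many of all genes with these words fell was not counted, and the part of the words in these falls was not tested. A match is a description and not a bound site, and these files hold no measurement of binding. Further starts of ITGA6 and LAMB3 in the table hold neither word. The promoters of LAMA2, which had the largest change of the members called, and of ITGA2 and LAMA5 hold neither word. Those of ITGA6, LAMA3 and LAMB3, chosen because they hold a word and fell by 2-fold or more, read as follows on the strand of the gene, with the word in capitals.
ITGA6, chr2:172427086-172427385, plus strand: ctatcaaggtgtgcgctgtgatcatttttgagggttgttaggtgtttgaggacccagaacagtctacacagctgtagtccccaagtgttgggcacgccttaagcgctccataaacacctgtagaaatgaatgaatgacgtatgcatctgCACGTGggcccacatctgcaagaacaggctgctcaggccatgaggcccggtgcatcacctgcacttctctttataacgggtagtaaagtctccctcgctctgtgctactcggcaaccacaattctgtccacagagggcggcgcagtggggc
LAMA3, chr18:23872770-23873069, plus strand: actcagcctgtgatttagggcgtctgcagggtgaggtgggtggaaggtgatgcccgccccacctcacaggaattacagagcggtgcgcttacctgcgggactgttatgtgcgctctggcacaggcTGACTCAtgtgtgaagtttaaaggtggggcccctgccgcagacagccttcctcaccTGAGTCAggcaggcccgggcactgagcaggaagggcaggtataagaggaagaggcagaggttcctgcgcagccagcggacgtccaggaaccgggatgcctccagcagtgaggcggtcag
LAMB3, chr1:209651325-209651624, minus strand: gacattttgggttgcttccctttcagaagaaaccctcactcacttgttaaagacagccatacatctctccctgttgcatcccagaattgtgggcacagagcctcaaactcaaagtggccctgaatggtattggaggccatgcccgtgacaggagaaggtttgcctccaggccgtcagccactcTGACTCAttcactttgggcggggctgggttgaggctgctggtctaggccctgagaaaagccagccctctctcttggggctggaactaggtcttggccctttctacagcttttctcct

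Integrins and laminins act with proteins that join them to the cytoskeleton, to tetraspanins and to other matrix proteins, and these were taken as lists. Of 28 genes of focal adhesions, 15 were called, 5 up and 10 down, with a median log2 fold change of -0.23. In this list ACTN4, a crosslinker of actin, fell from 896 to 507 CPM (log2 fold change -0.82, SE 0.12), and FERMT1, a kindlin that activates integrins in epithelia, from 84.8 to 48.9 CPM (-0.79, SE 0.08). TNS1 and TNS3 are tensins, which bind the tails of β subunits, and they moved in opposite directions, TNS1 by -0.68 (SE 0.13) and TNS3 by 0.65 (SE 0.09). TNS4, the most abundant tensin of the list, fell from 548 to 362 CPM (-0.60, SE 0.10). Of the kinases of focal adhesions, PTK2, the focal adhesion kinase, and SRC both rose, by 0.27 and 0.29, whereas PTK2B (-0.24, adjusted p = 0.16 from edgeR) and ILK (0.07, adjusted p = 0.84 from edgeR) were not called. The number of risen genes was 1 to 3 in place of 5 without any 1 of the control libraries or without GLCC1 siRNA replicate 1.

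Of 8 genes of hemidesmosomes and tetraspanins, 4 fell and 1 rose (median -0.35). CD9 and CD151, tetraspanins that bind laminin-binding integrins in the membrane, fell from 297 to 134 CPM (-1.15, SE 0.09) and from 92.0 to 42.5 CPM (-1.10, SE 0.19). CD81, a further tetraspanin, fell by 0.44 (SE 0.11). COL17A1, the collagen of hemidesmosomes, rose from 37.6 to 62.2 CPM (0.72, SE 0.10), the opposite direction to that of ITGA6 and ITGB4, its partners there. PLEC of the same list fell from 640 to 499 CPM (-0.36, SE 0.11), and DST was not called (-0.25, adjusted p = 0.054 from edgeR).

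Of 17 other matrix ligands tested out of 21 listed, 4 rose and 4 fell (median -0.015 beside 0.03 for all genes). TNC, a matrix protein bound by several integrins, rose from 19.0 to 37.3 CPM (0.97, SE 0.10). CYR61, a ligand of ITGAV and ITGA6 receptors, fell from 45.5 to 24.0 CPM (-0.93, SE 0.10). COL1A1, a chain of the collagen bound by ITGA2, fell from 13.4 to 7.38 CPM (-0.86, SE 0.14), and HSPG2, the perlecan of basement membranes, from 359 to 198 CPM (-0.86, SE 0.13). Of 5 other laminin receptors, SDC1 rose from 120 to 159 CPM (0.41, SE 0.09), SDC4 fell from 24.7 to 16.0 CPM (-0.62, SE 0.11), and the other 3, DAG1 among them, were not called. Adjusted p-values of the genes given as risen or fallen in these lists were under 0.05 in edgeR. The shares called were 53.6% of the focal adhesion list, 62.5% of the hemidesmosome and tetraspanin list, 47.1% of the matrix ligands and 40% of the other laminin receptors, beside 31.6% of all genes tested and 45.1% of those at a mean of 1 CPM or more, a level that most genes of these lists reached.

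**Figure D4:**
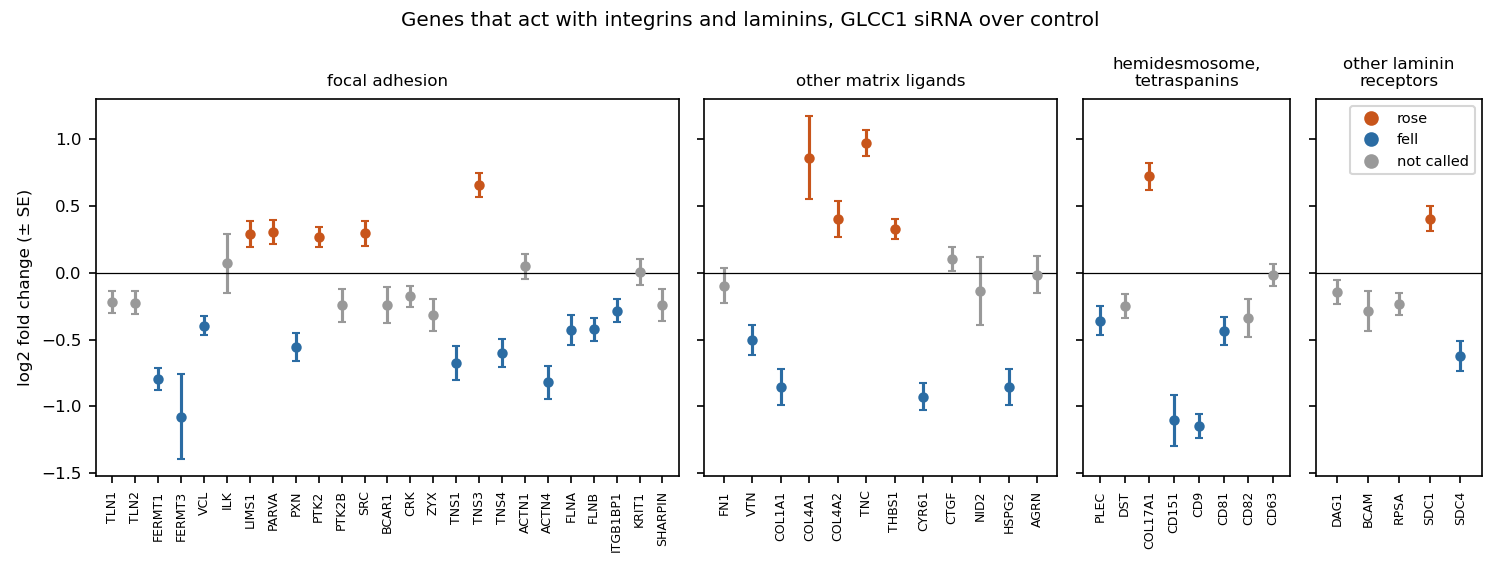
Log2 fold change (GLCC1 siRNA over control siRNA, point) with its standard error (bar) for genes of the 4 lists at a mean of 1 CPM or more, colored by call (adjusted p under 0.05 in edgeR). CD9 and CD151 lie at -1.15 and -1.10, whereas TNC and COL17A1 lie at 0.97 and 0.72.

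Values of GLCC1 siRNA replicate 2 differed from those of the other GLCC1 siRNA libraries in an orderly way among the members. Its log2 level over the mean of replicates 1 and 3 was lower for members with more GC in their exons (Spearman rho -0.719 over 26 genes, which share the same libraries), whereas the rho of GC content with the log2 fold change was -0.400. ITGAV, ITGA2 and ITGA6, with little GC, were above the other GLCC1 siRNA libraries in replicate 2, and LAMA5, ITGB4 and LAMC3, rich in GC, were below them. Not every member followed, as LAMA1, with 48.5% GC, was among the lowest (-0.626) and ITGB7, with 57.6%, was above 0 (0.156). The relation was not computed over all genes. The part of this library in the results is given by the values without it. Of the 13 calls, ITGB4 was the only call lost without it.

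**Figure D5:**
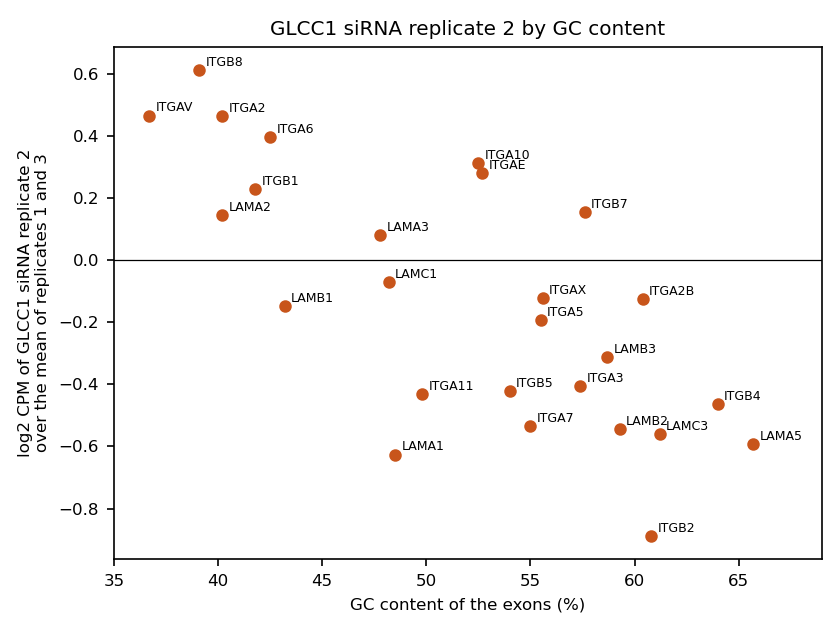
Log2 of the CPM of GLCC1 siRNA replicate 2 over the mean of GLCC1 siRNA replicates 1 and 3, against the GC content of the exons in percent, for 26 members with a mean of at least 1 CPM (1 point a gene). Points fall from the upper left to the lower right, with a Spearman rho of -0.719.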

How the data were processed

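Total RNA of the 6 libraries was made into sequencing libraries with an Illumina TruSeq RNA kit. The authors deposited raw counts of reads per gene symbol, 1 file for each library, without normalization. The submitters' processing notes name TopHat2 2.0.11 and HTSeq with hg19 (GRCh37), and the strand setting is not given in the sources used here. Reads counted as ambiguous or without a feature were left out of library sizes (7.30% to 7.79% and 9.82% to 12.7% of all reads tallied in a file).

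The integrins, laminins and lists were chosen with earlier results of these data known, so they are no independent evidence. The filter was that of the study's methods, at least 5 counts over the libraries of either group. The 23074 genes that passed were tested with edgeR 4.0.16 (TMM factors, robust quasi-likelihood test, no covariate) in R 4.3.3, Benjamini-Hochberg adjusted over all of them. With 3 libraries a group, the smallest p an exact permutation test allows for 1 gene is 0.1. The script was tested on simulated data. Members with a mean of at least 1 CPM were named singly, except 1 that is counted but not reported here. In each list, up to 4 genes were named by the largest absolute fold change among those called, with at least 10 CPM and no overlap. PTK2, SRC, PTK2B, ILK, TNS4, DAG1, PLEC and DST were named after their values were seen. Lengths and positions came from GENCODE 44 on GRCh37. Alternatives were DESeq2 1.42.0, other normalizations and filters, a replicate block, a 1.5-fold test and each library left out. Calculations outside R used Python 3.11.15.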

Additional observations from a re-analysis of the deposited data

How the results depend on the processing

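The 13 calls kept their direction under all 12 alternatives other than the 1.5-fold test, and 11 of them their call. The exceptions were ITGAV without control replicate 2 and ITGB4 without GLCC1 siRNA replicate 2. With library totals as the only normalization, which moved the median log2 fold change of all genes from 0.03 to 0.15, 6 members rose in place of 3, since ITGB1, LAMC1 and ITGB8 gained a call. Against 1.5-fold (glmTreat), 4 members fell in place of 10, and the lists held, up and down, 0 and 1 focal adhesion genes, 1 and 1 matrix ligands, 0 and 2 genes of hemidesmosomes and tetraspanins, and 0 and 0 other laminin receptors, because the test asks for a larger change. With a replicate block, 1 focal adhesion gene and 2 matrix ligands rose. Of the other laminin receptors, 2 fell with DESeq2 and with a filter of 1 count. With each library left out in turn, 1 to 7 focal adhesion genes rose, 2 to 5 matrix ligands rose and 1 to 2 other laminin receptors fell. Values that changed sign were not called in any setting: ITGB2 was -0.024 with the block and -0.13 to 0.22 with a library left out, ITGB5 was 0.085 with library totals, 0.0011 with a filter of 10 counts and -0.104 to 0.0923 with a library left out, and LAMB1 was 0.035 with library totals. Causes of these changes were not tested.

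Nothing in the sources says whether the replicate numbers pair the libraries. The correlations of the deviations of same-numbered libraries were -0.13, -0.25 and -0.0026 over 14875 genes, and those of the other pairs were -0.203 to 0.218. Deviations from means of 3 libraries, with GLCC1 siRNA replicate 2 apart from the others, cannot decide whether cultures were paired. Under the replicate block, 6522 genes were called in place of 7293, and 4 members rose and 10 fell. Without GLCC1 siRNA replicate 2, 9920 of 22470 genes tested were called. Coding length as a scale for shares was not run, as no table of proteins was used here. The length of the canonical transcript was added as an alternative after seeing the data. Counts of 3 or fewer set the limit for 4 members.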
